A study of Mus musculus with 8 samples.

Results

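Red cell miRNAs (mmu-miR-451, mmu-miR-486 and mmu-miR-144) were described in mouse Kupffer cells (KC), which are macrophages resident in the liver, and in monocytes from blood (MNC). They are 3 of the 566 mouse miRNA rows of an nCounter panel, in which single fluorescent barcodes are counted. They were selected on their role in red cells and chosen by measured values: their level against the negative controls, their course over the MNC samples and their difference between KC and MNC. These values are therefore given as a description, with no test. The series held 4 KC and 4 MNC samples from Balb/C mice, each labelled as a pool of sorted cells from 5 animals, whereas the methods of the study also allow smaller pools. No treatment was labelled in either group, and age and sex were not labelled.

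Both cell types were taken by magnetic beads against F4/80. KC came from livers that were perfused with saline, digested with collagenase and spun on a density gradient. MNC came from blood spun on Ficoll. No lysis of red cells is described for either. The labels state an input of 100 ng of total RNA per sample, and how well the column kit kept short RNA was not tested.

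In maturing red cells miR-144 and miR-451 are cut from one transcript under the control of GATA1, the master transcription factor of the lineage. miR-451 is unusual in that its precursor is too short for Dicer and is trimmed by Argonaute 2 instead. miR-486 comes from the ankyrin gene Ank1, whose protein anchors the red cell membrane to its skeleton, and it also acts in muscle. Red cells have no nucleus but keep these short RNAs, and miR-451 is among the most abundant miRNAs in them. Macrophages of the liver and the spleen take up aged red cells.

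The sequences below show what the rows can stand for, with the seed, bases 2 to 8 from the 5′ end, in capitals. They come from RefSeq (build GRCm38.p6), where 2 of the 3 rows had a mature sequence. The panel row miR-451 was read as miR-451a and the row miR-144 as the 3p arm, since the older panel names give no arm. miR-101a-3p is shown because it is the sole other mature mouse miRNA in the table with bases 2 to 7 of miR-144-3p.
mmu-miR-451a: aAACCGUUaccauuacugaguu
mmu-miR-144-3p: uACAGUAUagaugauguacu
mmu-miR-101a-3p: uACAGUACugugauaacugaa
None of the 1679 mature names in the table shared all of bases 2 to 8 with miR-451a or miR-144-3p. miR-101a-3p has 6 of its 7 seed bases in common with miR-144-3p. The mature strands lie at chr11:78073186-78073207 (miR-451a) and chr11:78073047-78073066 (miR-144-3p), both on the + strand. The panel had no row for the opposite arm of any of the 3 miRNAs.

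The hairpins of both miRNAs are shown with the mature strand in capitals, because they stand side by side on chromosome 11 while their rows gave different counts.
Mir144: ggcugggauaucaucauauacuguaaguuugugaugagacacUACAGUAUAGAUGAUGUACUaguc
Mir451a: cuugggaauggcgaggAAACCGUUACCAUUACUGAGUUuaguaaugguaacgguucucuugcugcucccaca
The Mir144 hairpin (66 bases, chr11:78073005-78073070) ends 99 bases before that of Mir451a (72 bases, chr11:78073170-78073241). The mature strand of miR-451a runs from base 17 to base 38 of its hairpin. Mir486 lies within the Ank1 gene.

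The deposited signal of a row is its barcode count times a factor for the sample, which was 1.52 to 1.76 in KC and 0.589 to 1.06 in MNC. This factor brought the geometric mean of 4 mRNAs (Actb, B2m, Gapdh and Rpl19) to the same level in all 8 samples, and these mRNAs had 505 ± 32.3 counts in the 4 KC samples against 1074 ± 254 in the 4 MNC samples (SD). A row with equal counts in both groups is therefore higher in KC as deposited. Total counts over the mouse rows were 8669 to 10194 in KC and 5374 to 10568 in MNC. MNC 1 had the lowest total, the lowest factor and the lowest positive ligation controls of the 8 samples (533 counts, against 885 to 1136 in the other MNC and 1217 to 2821 in KC). Its gap to the other MNC samples was under Dixon's 95% limit for the total count (0.644 of the range). Values with and without MNC 1 are given below. The part of these differences in depth in the results was not tested.

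The limit of background in a sample was the highest of its 8 negative controls, and a row with more counts was above it. This limit was 20 to 31 in KC and 17 to 35 in MNC. The mean negative control was 11.9 to 14.8 counts in KC and 9.25 to 16.5 in MNC. Exact Poisson 95% intervals are given for single counts, exact Clopper-Pearson intervals for shares, and both cover counting error only. By this limit the 3 miRNAs differed widely in these samples. miR-486 was above background in 8 of 8, miR-451 in 2 of 8 and miR-144 in 0 of 8.

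**Figure D1:**
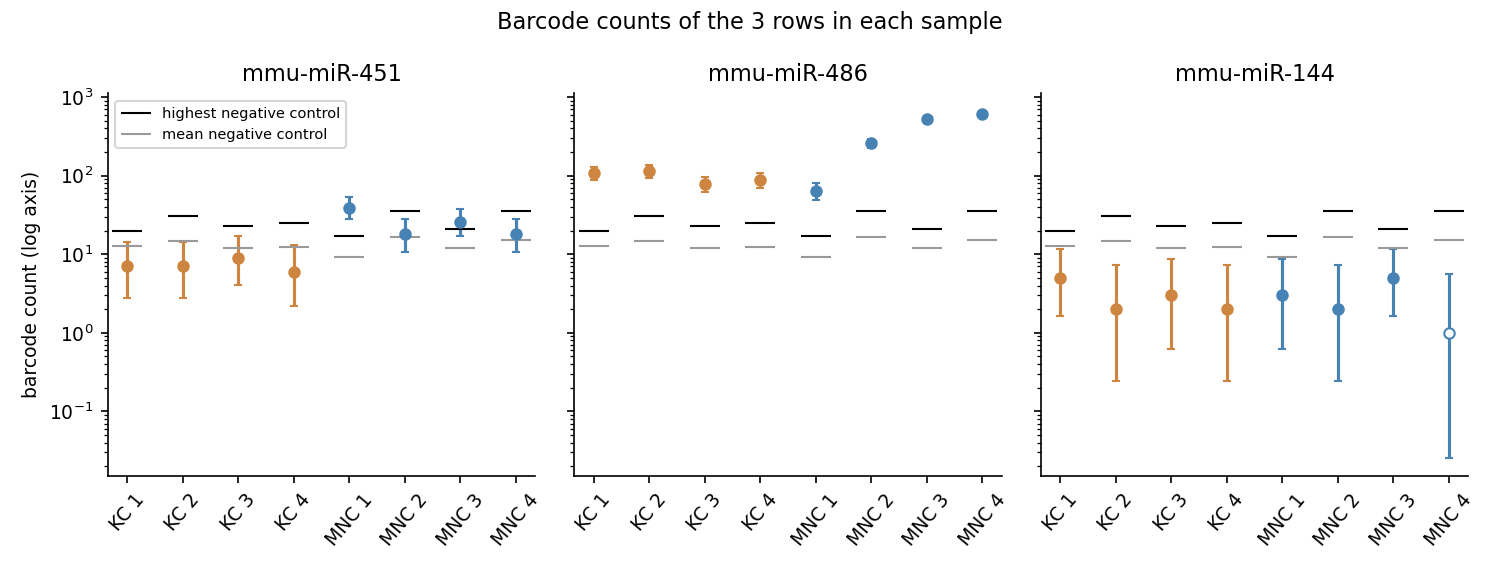
Barcode counts (log axis) of miR-451, miR-486 and miR-144 in the 4 KC samples (brown) and the 4 MNC samples (blue), with exact Poisson 95% intervals; black dashes are the highest and grey dashes the mean negative control of each sample. The open point stands for at most 1 count. miR-486 is above the black dash in all 8 samples, miR-451 in MNC 1 and MNC 3, and miR-144 in none.

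miR-486, which supports the growth and survival of erythroid cells, was the best measured of the 3. KC 1 to KC 4 gave 107, 114, 78 and 88 counts, and MNC 1 to MNC 4 gave 63, 258, 522 and 617. KC samples lay close together, MNC 2 to MNC 4 lay above all of them, and MNC 1 lay below all of them. KC averaged 96.8 ± 16.6 counts (SD, n = 4), MNC averaged 365 ± 252 (n = 4), and MNC without MNC 1 averaged 466 ± 186 (n = 3). Against the mean negative control the counts were 6.57 to 8.31 times as high in KC and 6.81, 15.6, 43.1 and 40.8 times in MNC 1 to MNC 4.

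Among the 566 mouse rows miR-486 ranked 7 to 9 by count in KC and 3, 2, 2 and 1 in MNC 1 to MNC 4. It made up 0.863% to 1.18% of mouse miRNA counts in KC. In MNC it made up 1.17% in MNC 1 (95% interval 0.902% to 1.50%), 2.44% in MNC 2, 5.99% in MNC 3 and 6.17% in MNC 4 (5.71% to 6.66%). As a share MNC 1 thus lay within the KC samples, and the other MNC samples lay above them. In bulk samples fewer cells of a type and less RNA per cell cannot be told apart.

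Counts of miR-486 were spread more widely over the MNC than over the KC samples. Its highest count was 1.46 times its lowest in KC and 9.79 times in MNC. As a share of mouse counts, which takes account of the low total of MNC 1, the highest was 1.37 times the lowest in KC and 5.26 times in MNC. Over the 55 mouse rows above background in at least 4 samples, the median ratio of highest to lowest count was 1.81 in KC and 2.67 in MNC. Some of these rows were not above background in MNC 1, and miR-122 was above it in 0 MNC samples. Their ratios in MNC thus hold background counts. By this ratio of counts miR-486 had place 5 in MNC, after let-7d, miR-150, let-7b and miR-720. Without MNC 1 the ratio of miR-486 was 2.39 and the median 1.65.

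miR-451, which restrains the adaptor protein 14-3-3ζ and protects red cells from oxidative stress, was at background in KC. KC 1 to KC 4 gave 7, 7, 9 and 6 counts, and MNC 1 to MNC 4 gave 39, 18, 26 and 18. All 4 KC counts lay under the mean negative control of their sample and under all 4 MNC counts. Counts lay apart in that direction for 1.06% of all mouse rows, and the deposited signals of miR-451 overlapped. KC averaged 7.25 ± 1.26 counts (SD, n = 4), MNC averaged 25.3 ± 9.91 (n = 4), and MNC without MNC 1 averaged 20.7 ± 4.62 (n = 3).

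In MNC 1 the interval of the miR-451 count was 27.7 to 53.3, against a highest negative control of 17, and in MNC 3 it was 17.0 to 38.1, which spans the highest negative control of 21. In MNC 2 and MNC 4, 2 and 3 of the 8 negative controls were at or above miR-451. Of the 36 herpesvirus, plant and worm miRNA rows, which are not mouse miRNAs, 21 to 25 were at or above miR-451 in each KC sample. In MNC 1 to MNC 4 these were 0, 19, 0 and 19. A level of miR-451 over background was thus clear in MNC 1 and marginal in MNC 3, and none was detectable at this depth in KC, MNC 2 and MNC 4.

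By rank miR-451 was 6 of 566 in MNC 1, 38 in MNC 3, 241 in MNC 2 and 212 in MNC 4, and 255 to 323 in KC. Its share of mouse miRNA counts was 0.726% in MNC 1 (95% interval 0.517% to 0.991%), 0.298% in MNC 3, and 0.170% and 0.180% in MNC 2 and MNC 4. In KC the share was 0.0589% to 0.104%. The shares in KC, MNC 2 and MNC 4 hold counts that cannot be told from background.

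miR-144, which lowers the antioxidant regulator Nrf2, was not detected in any sample. KC 1 to KC 4 gave 5, 2, 3 and 2 counts, and MNC 1 to MNC 4 gave 3, 2, 5 and at most 1. The groups overlapped, with averages of 3.00 ± 1.41 for KC and 2.75 ± 1.71 for MNC (SD over 4 samples), where MNC 4 was taken as 1. At least 7 of the 8 negative controls were at or above it in every sample, and so were 27 to 36 of the 36 rows that are not mouse miRNAs. The highest of its upper interval limits was 11.7 counts. The row thus gave no level of miR-144, and the count of miR-451 in MNC 1 was not matched by a count of miR-144 from the neighbouring hairpin, at 3 (0.619 to 8.77). These rows have different probes, and whether the probes count alike was not tested.

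Over the MNC samples an order can be read for miR-486 only, since miR-144 gave no level and miR-451 was at background in MNC 2 and MNC 4. From the lowest to the highest count, miR-486 ran MNC 1, MNC 2, MNC 3, MNC 4. The count of miR-451 was highest in MNC 1 and next in MNC 3. MNC 1 thus held the highest count of miR-451 and the lowest of miR-486. In the deposited signal MNC 3 was highest for all 3 rows, at 27.5 for miR-451, 553 for miR-486 and 5.29 for miR-144, and MNC 3 also had the largest factor of the MNC samples.

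The ratio of miR-486 to miR-451 within a sample does not depend on the factor of that sample. This ratio sets counts of different probes against each other, and whether these count alike was not tested. It is therefore read between samples and not as a relative abundance. It was 1.62 in MNC 1 (exact 95% interval 1.07 to 2.47), 14.3 in MNC 2 (8.89 to 24.6), 20.1 in MNC 3 (13.5 to 31.0) and 34.3 in MNC 4 (21.5 to 58.2). In KC the ratio was 8.67 to 16.3, and there miR-451 was at background, as in MNC 2 and MNC 4, so that in these 6 samples the ratio holds background in its lower term. With the mean negative control subtracted it was 1.81 in MNC 1 and 36.7 in MNC 3, the samples in which both rows were above background.

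**Figure D2:**
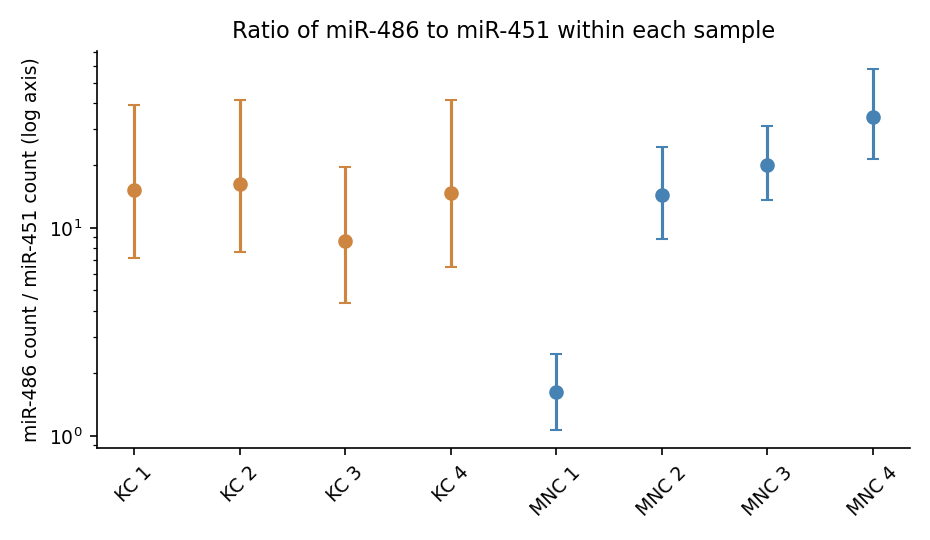
Ratio of the miR-486 count to the miR-451 count (log axis) within each of the 4 KC (brown) and 4 MNC samples (blue), with exact 95% intervals for counting error. MNC 1 is at 1.62, and the other MNC samples are at 14.3 to 34.3.

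Together the 3 rows made up 0.942% to 1.27% of mouse miRNA counts in KC and 1.95%, 2.63%, 6.34% and 6.36% in MNC 1 to MNC 4. All MNC samples lay above all KC samples, and these sums include counts of miR-451 and miR-144 that are at background. The share of miR-486 alone overlapped, at 1.17% in MNC 1 against 0.863% to 1.18% in KC. In MNC 1 the sum also held 39 counts of miR-451. The members were chosen with this contrast in view, and how often other sums of 3 rows lie apart in this way was not tested. miR-486 gave 86.7% to 92.7% of this sum in KC, 60.0% in MNC 1 and 92.8% to 97.0% in the other MNC samples. miR-486 thus gave most of the sum in all 8 samples, and miR-451 had its largest part of it in MNC 1.

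The difference between KC and MNC relative to the other rows was one of the values that chose these miRNAs, and it is described here without a test. Measured as log2(signal + 1), where changes of low rows come out too small, miR-451 differed by -0.64 (KC minus MNC, SE 0.43) and miR-486 by -0.43 (SE 0.67). miR-144 differed by 0.87 (SE 0.40). Counts of miR-144 were at background in all samples and those of miR-451 in KC, MNC 2 and MNC 4, so only for miR-486 do the means compare measured levels. The median difference over all 566 rows was 0.94. Relative to that median, miR-451 was at -1.58, miR-486 at -1.38 and miR-144 at -0.07. No row had a lower difference than miR-451, 2 rows had a lower one than miR-486, and 246 rows had a lower one than miR-144. The median mouse count was 8 to 11.5 in KC and 7 to 14 in MNC, under the mean negative control of every sample. The median row thus stands mostly for rows at background. Among the 54 rows above background on average the median difference was 1.30, and miR-486 was at -1.73 relative to it.

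In a limma fit of all 566 rows, 140 rows, or 24.7%, were called higher in KC at a Benjamini-Hochberg adjusted p under 0.05, and 0% were called lower (0 rows also at an unadjusted p under 0.05, against 307 higher). With the factor undone 1 row was called higher (0.177%) and 0% lower. Scaling to the same total gave 8 higher and 1 lower, and scaling to the positive ligation controls gave 3 higher and 258 lower, so the direction of the calls rests on the scaling. The number higher in KC was 33 without KC 1, 26 without KC 2 and 41 without KC 4. Replicates are pools, so these p-values measure only the spread between the pools. A negative difference was found for 15 rows, miR-451 and miR-486 among them. Nothing is read from the calls about the 3 miRNAs, since this contrast was used to choose them.

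**Figure D3:**
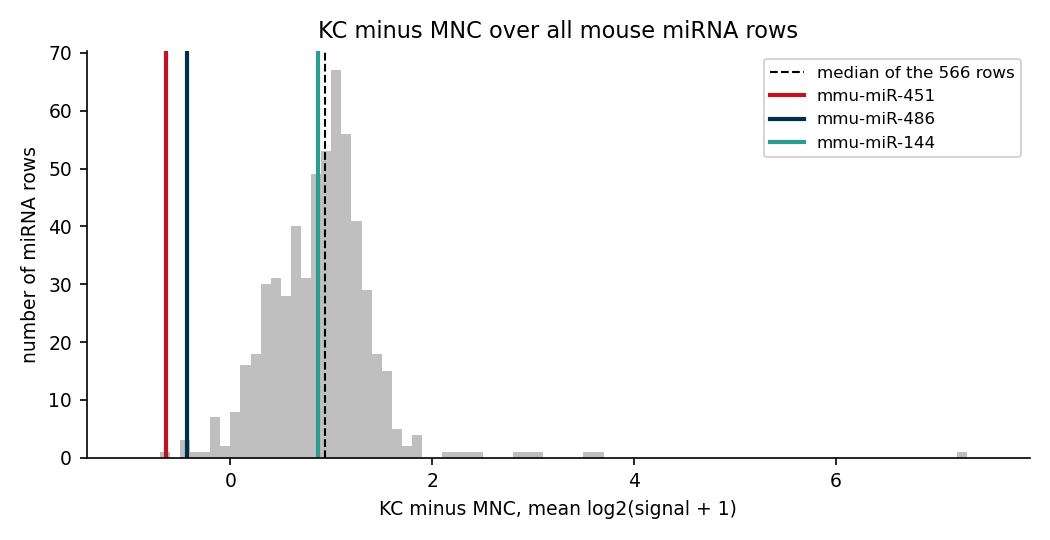
Histogram of the difference KC minus MNC in mean log2(signal + 1) over the 566 mouse miRNA rows, with the median row (dashed, 0.94) and the 3 miRNAs (coloured lines). miR-451 is at the lower end, miR-486 has 2 rows below it, and miR-144 is close to the median.

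With the factor undone, the differences on log2(count + 1) were -1.61 (SE 0.31) for miR-451, -1.48 (SE 0.66) for miR-486 and 0.15 (SE 0.37) for miR-144, with a median of 0.00 over all rows. The counts of miR-451, at background in KC and in 2 of the 4 MNC samples, did not overlap between the groups, which held for 1.06% of rows in that direction (6 rows) and for 2.30% with KC higher. As deposited, 36.9% of rows did not overlap with KC higher and 0% with KC lower, so the signal of miR-451 overlapped, at 9.31 to 14.9 in KC and 13.1 to 27.5 in MNC. Without MNC 1 the deposited difference of miR-451 was -0.54 and that of miR-486 was -1.26. Without MNC 3 that of miR-486 was 0.03, which turns its sign.

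Relative to the median row the difference of miR-451 was negative in all 16 alternatives that held its row, from -1.91 to -0.92, and that of miR-486 in all 17, from -1.91 to -0.96. For miR-144 it ran from -0.31 to 0.32. A factor per sample moves all rows alike, so that rescaling can change these relative values only through the pseudocount and is no support for them.

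**Figure D4:**
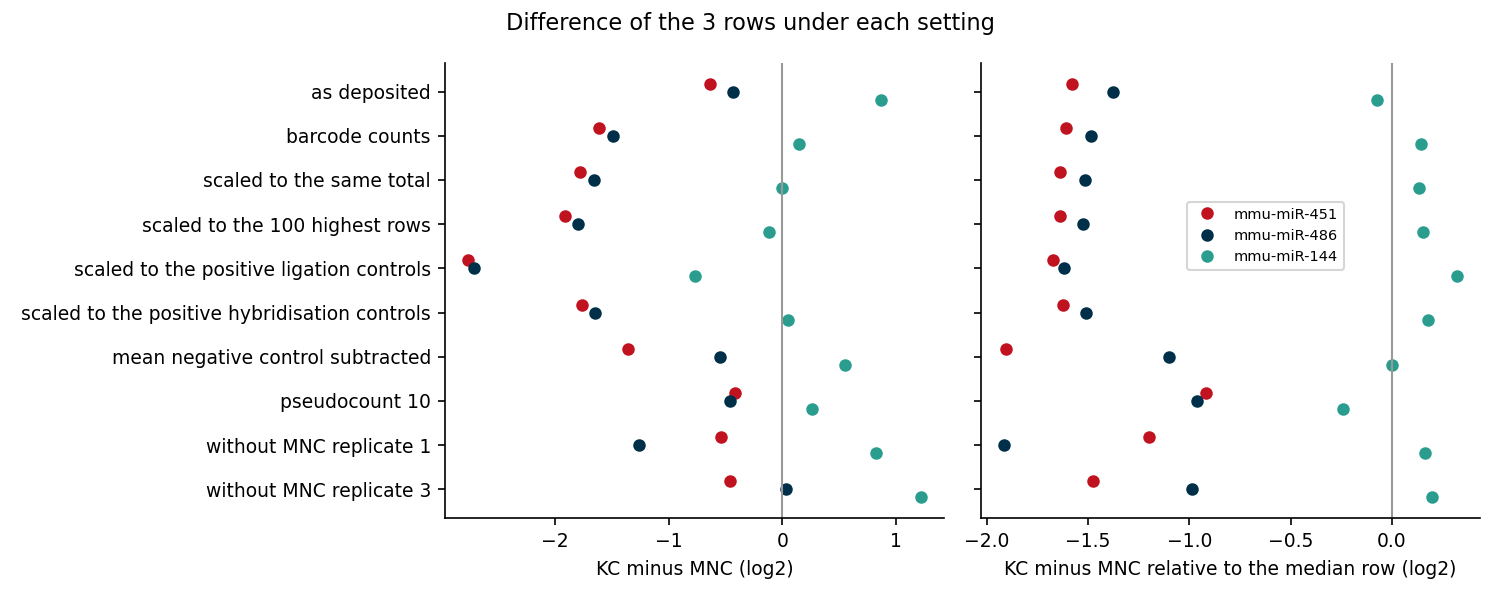
Difference KC minus MNC (log2) of miR-451, miR-486 and miR-144 under 10 settings, plain (left) and relative to the median of all mouse rows (right); the grey line marks no difference. On the right miR-451 and miR-486 stay below 0, between -1.91 and -0.92, while miR-144 lies on both sides of 0.

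The rows of most like pattern were found over the 8 samples, among the rows above background in at least 4 of them, by the root mean square difference of centred log2 counts. For miR-486 the nearest of 54 rows was miR-150, a miRNA of mature lymphocytes that restrains Myb, at 0.75 (median over rows 1.20). It had 32, 101, 50 and 114 counts in KC 1 to KC 4 and 15, 178, 463 and 350 in MNC 1 to MNC 4. It too was lowest in MNC 1 and high in MNC 3 and MNC 4. The ratio of miR-486 to miR-150 was 0.772 to 3.34 in KC and 4.20, 1.45, 1.13 and 1.76 in MNC 1 to MNC 4. In MNC 1 the 15 counts of miR-150 were under the highest negative control of 17, so the ratio there holds background in its lower term.

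The next rows to miR-486 were miR-15b (0.82), with 10 to 30 counts in KC and 19 to 52 in MNC, and miR-720 (0.89), with 165 to 235 in KC and 36, 215, 489 and 298 in MNC 1 to MNC 4. miR-720 was also lowest in MNC 1 and highest in MNC 3. miR-142-5p, a miRNA common to the blood cell lineages, had 459 to 554 counts in KC and 505 to 745 in MNC, with 616 in MNC 1. The ratio of miR-486 to it was 0.170 to 0.217 in KC and 0.102, 0.346, 0.941 and 1.22 in MNC 1 to MNC 4.

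For miR-451, at background in 6 of the 8 samples, the nearest of 55 rows was miR-2183 (0.60, median over rows 1.22), with 27 to 37 counts in KC and 86, 33, 41 and 36 in MNC 1 to MNC 4. It was highest in MNC 1, where miR-451 was clearly above background. miR-205 (0.75) and miR-203 (0.77), which are known from epithelia, followed, with 24 to 32 and 25 to 35 counts in KC and 33 to 42 and 28 to 55 in MNC. For miR-144, whose counts are background, the nearest were miR-2146 (0.45), miR-1962 (0.47) and miR-142-5p (0.53, median over rows 0.83).

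**Figure D5:**
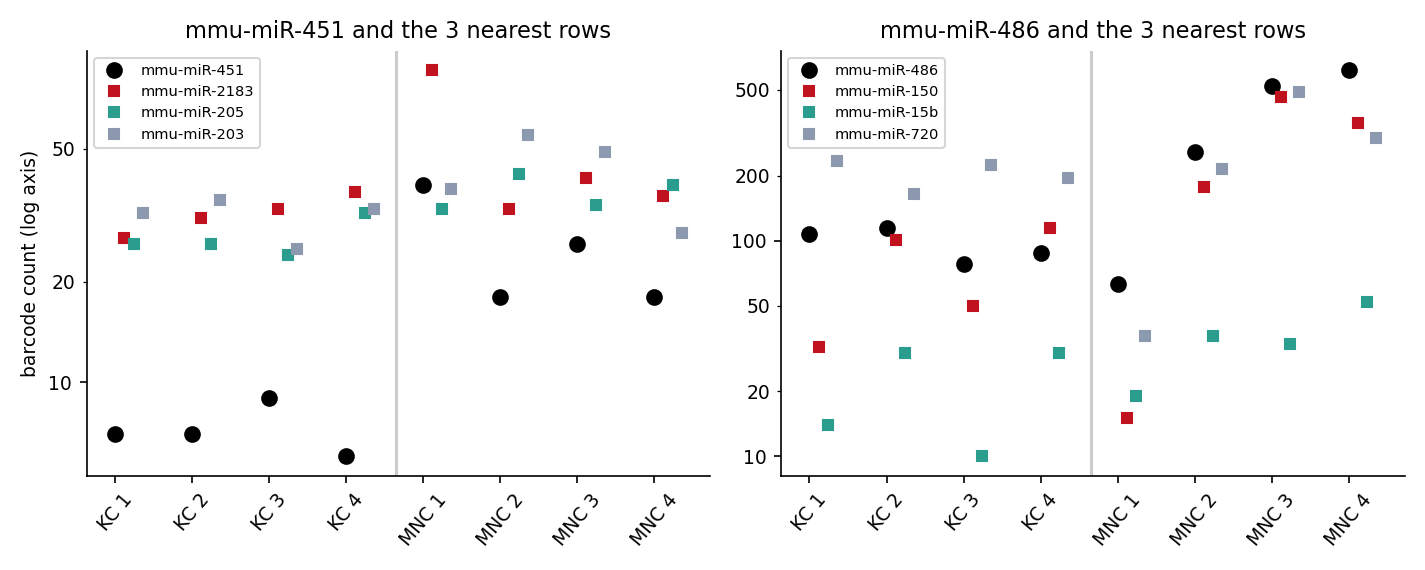
Barcode counts (log axis) of miR-451 (left) and miR-486 (right), as black circles, with the 3 rows of most like pattern, as coloured squares set slightly to the right; the grey line parts KC from MNC. miR-486, miR-150 and miR-720 are lowest in MNC 1 among the MNC samples, whereas miR-451 and miR-2183 are highest there.

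Other miRNAs known to be abundant in red cells or to rise as they mature were taken as a list of 15, all on the panel. Of these, 11 were above background in no sample, and 3 were above it in at least 4 samples. In the limma fit 5 of the 15 were called higher in KC and 0 lower, against 24.7% and 0% of all rows. Their median difference was 0.51, which is 0.43 below the median row. With the factor undone none of the 15 was called (limma adjusted p from 0.583 to 0.996).

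The 3 members above background in at least 4 samples were miR-16, miR-15b and miR-25. miR-16, which slows the cell cycle and is widely used as a reference, had 61, 61, 61 and 66 counts in KC 1 to KC 4 and 22, 76, 41 and 47 in MNC 1 to MNC 4. It was called higher in KC as deposited (difference 1.58, SE 0.45, limma adjusted p = 0.0283), whereas its counts overlapped (0.54 with the factor undone, limma adjusted p = 0.996) and the difference was -0.66 after scaling to the positive ligation controls. miR-15b, made from the same transcript as one copy of miR-16, differed by 0.24 (SE 0.46, limma adjusted p = 0.639), and miR-25, from the cluster that also holds miR-106b and miR-93, by 0.83 (SE 0.44, limma adjusted p = 0.115). The other calls were miR-96, miR-106b, miR-185 and miR-320, of which miR-96 was above background in 2 samples and the others in none.

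A second list held 7 miRNAs that fall as red cells mature. Of these, 6 were above background in no sample, and 0 were called in either direction, against 24.7% of all rows higher and 0% lower. The median difference was 0.47, which is 0.47 below the median row. The detected one, miR-150, which is also a lymphocyte marker, differed by -0.11 (SE 0.77) at a limma adjusted p of 0.897. miR-221 and miR-222, which hold back the receptor Kit in this lineage, had 1 to 5 and 1 to 6 counts.

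Markers of other cells that the sorts could hold are given beside these values. Lymphocyte markers (miR-150, miR-181a and miR-155) summed to 66 to 164 counts in KC and to 27, 227, 515 and 425 in MNC 1 to MNC 4. miR-155 was at 1 count or less in every sample, with the same means as let-7a, miR-34c and miR-543, so its row gave no level. Their sum was lowest in MNC 1 and high in MNC 3 and MNC 4, as for miR-486. Most of the sum in MNC was miR-150, the row named above as nearest to miR-486, so this likeness is not a separate one. miR-181a had 33, 58, 41 and 49 counts in KC 1 to KC 4 and 11, 48, 51 and 74 in MNC 1 to MNC 4. It differed by 1.24 (KC minus MNC, SE 0.52), against -0.11 for miR-150. The part of lymphocytes in the level of miR-486 was not tested. Hepatocyte markers (miR-122, miR-192, miR-194 and miR-148a) summed to 220 to 723 counts in KC and 22 to 79 in MNC, and 3 of the 4 were called higher in KC as deposited (24.7% of all rows), but miR-122 alone with the factor undone (limma adjusted p = 0.000141; 0.177% of all rows). Platelet and endothelium markers (both arms of miR-126, and miR-199a-3p) were above background in no sample, with sums of 9 to 13 in KC and 11 to 27 in MNC. Of the 4 myeloid markers 0 were called, and their sum was 491 to 581 in KC and 553 to 784 in MNC. Nearly all of it was miR-142-5p, common to the blood cell lineages, with 459 to 554 counts in KC and 505 to 745 in MNC. miR-142-3p was above background in 2 KC samples and 0 MNC samples. miR-21 was above background in no sample, nor was miR-223, the defining miRNA of granulocytes, at 2 to 11 counts.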

How the data were processed

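Pools of sorted cells were run on an nCounter Mouse miRNA panel, and the authors processed the barcode counts in nSolver 4.0. The deposited values are a normalized signal, whose scaling for this panel the methods do not detail. The study mentions reference miRNAs for nanostring without naming them, while it names a reference for its PCR of miRNAs. The factor found here equalized 4 mRNAs, and this difference was not resolved. In each sample 100% of values above 1 were whole multiples of one factor (tolerance 0.02 counts), so counts were recovered by dividing. Positive and negative controls carried no factor. Scaled values under 1 were listed as 1, and these were set to 1 count. All 566 mouse rows were fitted on log2(signal + 1) with limma 3.58.1 in R 4.3.3 (lmFit, eBayes with trend, group as the only term), with Benjamini-Hochberg adjustment. A Mann-Whitney test, here in its exact form, and other scalings, backgrounds and filters were tried. The methods of the study name a Mann-Whitney test for relative expression levels, immunophenotypes and blots. For its mRNA panel they take p-values from nSolver. The text names the 3 miRNAs, for each the 3 rows nearest in pattern, detected members of both red cell lists, and cell type markers; additional names are marked or come from calls. The members and lists were chosen with earlier results of these data known.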

Additional observations from a re-analysis of the deposited data

How the results depend on the processing

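Calls between KC and MNC turned with the scaling. As deposited 140 rows were called, all higher in KC. The number was 1 on barcode counts (miR-122), 9 with samples scaled to the same total (8 higher, 1 lower), 7 with scaling to the 100 highest rows (5 higher, 2 lower), 5 with scaling to the positive hybridisation controls (4 higher, 1 lower) and 261 with scaling to the positive ligation controls (3 higher, 258 lower). The single lower calls were miR-451, joined by miR-15b with the 100 highest rows, and nothing is read from that of miR-451, which was chosen with this contrast in view. Subtracting the mean negative control gave 332 and a pseudocount of 10 gave 252, all higher. Among the 54 rows above background on average 40 were called. The exact Mann-Whitney test called 0 after adjustment and 209 at an unadjusted p under 0.05. Leaving out 1 sample gave 26 to 176 calls, with 33 without KC 1, 26 without KC 2 and 41 without KC 4. Without MNC 1 the lower calls were miR-486 alone. With the replicate block 198 rows were called and the values of the 3 miRNAs were as before. Deviations of samples with the same number correlated at 0.02 to 0.10, not all above 0.1, so the numbers were not taken as pairs. As a hint from the data, 3 of the 4 KC samples were most like the MNC sample of their own number.

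The plain difference of miR-451 was -1.61 on counts, -1.78, -1.91, -2.76 and -1.76 with scaling to the total, the 100 highest rows, the ligation and the hybridisation controls, and -1.35 with background subtracted. That of miR-486 was -1.48 on counts and -1.66, -1.80, -2.71 and -1.65 under the same 4 scalings. That of miR-144 was 0.15 on counts and -0.0029, -0.12, -0.76 and 0.0451 under the same 4 scalings. Leaving out 1 sample gave -0.80 to -0.46 for miR-451, -1.26 to 0.03 for miR-486 and 0.66 to 1.22 for miR-144. Relative to the median row miR-451 moved to -0.92 with a pseudocount of 10. Leaving out 1 sample gave relative values of -1.83 to -1.20 for miR-451, -1.91 to -0.99 for miR-486 and -0.31 to 0.20 for miR-144. miR-451 and miR-144 were not among the 54 rows and have no value there. With background subtracted the ratio of miR-486 to miR-451 was 161 in MNC 2 and 209 in MNC 4, where the subtracted miR-451 is near 0. With a limit of the mean negative control plus 2 SD, 88 rows in place of 149 were above background in KC 1 and 26 in place of 41 in MNC 2. The counts are low, so miR-144 in all samples and miR-451 in 6 of 8 have only an upper limit.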
